A study of Mus musculus with 12 samples.

Results

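The genes described here are the 49 genes of ribosome biogenesis in the deposited liver table: subunits and factors of RNA polymerase I, the proteins of small nucleolar ribonucleoproteins (snoRNPs), and the nucleolar factors that cut, fold and assemble the ribosomal subunits. They were chosen by gene symbol, and all 49 symbols were found among the 17432 genes of the table. All 49 also passed the filter on low counts that left 12344 genes for testing. The livers came from male wild-type C57BL/6J mice, an inbred laboratory strain, 8 to 10 weeks old. All mice, the controls included, had been used to the treadmill and brought onto the same feeding schedule over 3 days, and all were refed before the experiment. After the meal the Exercise group (6 livers) was run for 3 hours on the treadmill at 14 m/min, and the Sedentary group (6 livers) was not. The comparison asks how liver transcripts differed after postprandial exercise. The samples are whole liver, so fewer cells of a type and less RNA per cell cannot be told apart.

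Ribosome synthesis starts in the nucleolus, where RNA polymerase I copies the ribosomal DNA repeats into a long precursor of 18S, 5.8S and 28S ribosomal RNA. Box C/D snoRNPs methylate this precursor and box H/ACA snoRNPs turn chosen uridines into pseudouridines, while the small subunit processome and the pre-60S factors fold it, cut it and load it with ribosomal proteins. The pathway takes a large part of a growing cell's energy. In liver it is known to follow feeding, insulin and mTOR signaling, and Myc is a well known activator of many of its genes.

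Each library held 18745379 to 19324461 estimated counts. The lowest count of any of them in a library was 48 (Polr1e) and the highest 2435, and 48 of the 49 had at least 50 counts in every library. Values below are CPM, counts scaled to the library size and TMM factors, and an adjusted p comes from the quasi-likelihood test of edgeR, adjusted by Benjamini and Hochberg's method over all 12344 genes, with a threshold of 0.05. The exact permutation tests are two-sided over the 924 relabellings of the 12 livers, and the smallest p they can give is 0.00216. Positions of genes are from RefSeq on GRCm38.p6, the build that mm10 names. The labels number the replicates but say no more of their origin, so p-values measure the spread between these samples. The tissue label was checked with markers of hepatocytes, the main cells of liver. They summed to between 149700 and 204000 CPM per library. Of the 13 tested, 3 rose (23.1%), a share near the 21.1% of all genes tested that rose. They were Hnf4a (0.59), Ass1 (0.35) and Alb (0.24) on the log2 scale, named after their values were seen.

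After exercise, most of the ribosome biogenesis genes were lower. Of the 49, 33 fell, 3 rose (Ubtf, Polr1c and Npm1) and 13 did not pass the test. Of all genes tested, 21.3% fell and 21.1% rose. The median log2 fold change of the 49 genes was -0.277, against -0.00275 over all genes tested, and 43 of the 49 had a negative log2 fold change, against 50.4% of all genes. Most changes were smaller than 1.5-fold. Rrp12, Nop58, Mybbp1a, Rrp9, Dkc1 and Heatr1, 6 genes, were lower by at least that much, as were 6.55% of all genes tested. For 17 genes every exercised liver lay below every sedentary liver, and for 2 (Ubtf and Polr1c) every exercised liver lay above, where 10.6% and 11.7% of all genes tested had no overlap in these directions. Scaling by library size alone gave 38 lower and 2 higher, on a background in which 30.3% of all genes fell and 14.3% rose. Among the fits that left out a single liver, the one without Exercise replicate 6 gave the fewest calls, 28 lower and 3 higher. At an unadjusted p under 0.05 in edgeR 34 genes were lower and 3 higher, and DESeq2 called 33 lower and 3 higher. In each role below with 0 genes that rose, 0 were higher at that unadjusted p and 0 in DESeq2.

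**Figure D1:**
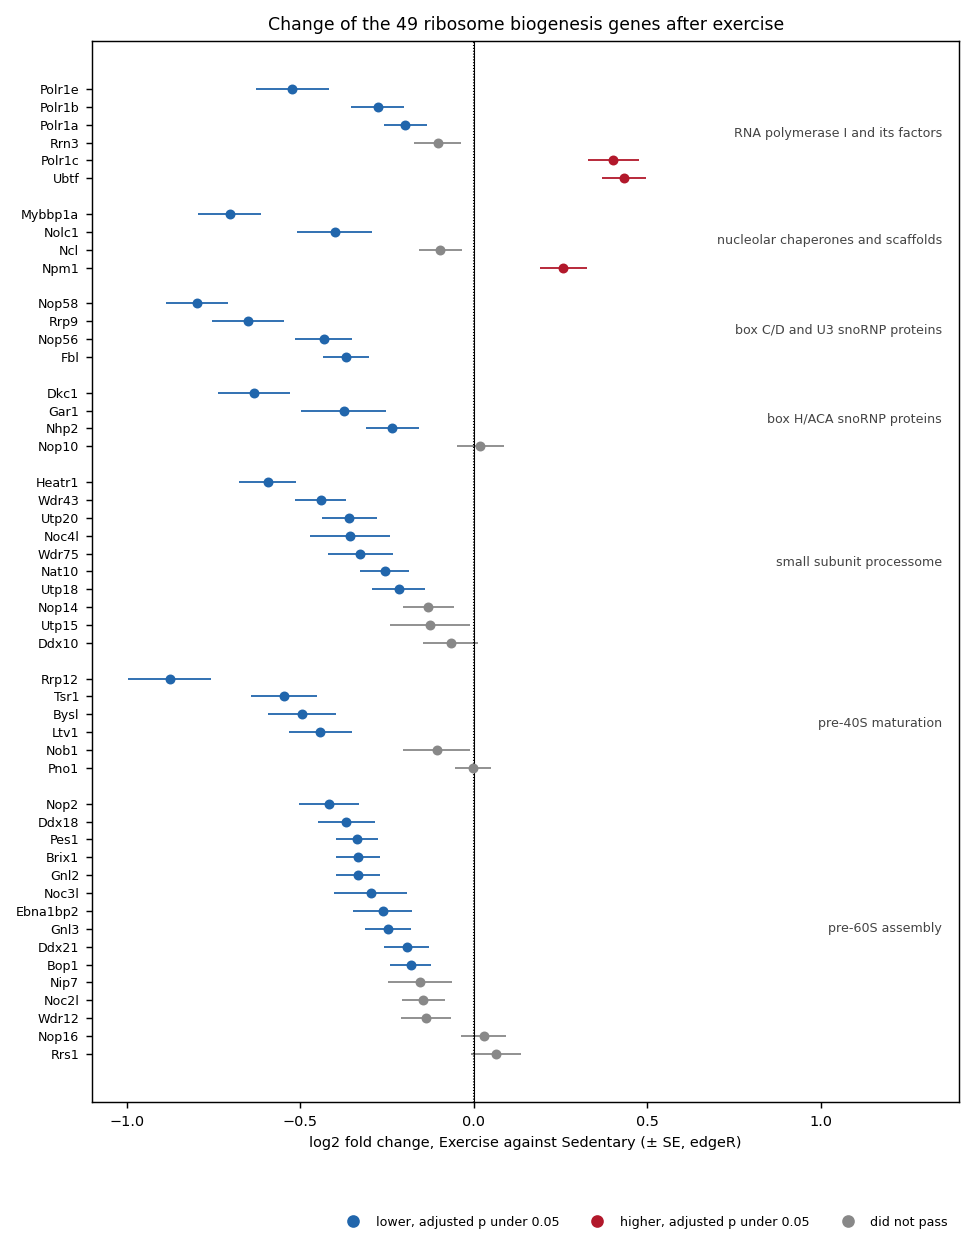
Log2 fold change of each of the 49 genes, exercised against sedentary livers (horizontal axis; points are edgeR estimates and bars are ± SE, n = 6 livers per group), grouped by role and sorted within it. Blue points fell (33), red points rose (3) and grey points did not pass the test (13), and the estimates run from -0.88 for Rrp12 to 0.43 for Ubtf.

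The lower level was present in each exercised liver. The 49 genes together took 0.102% to 0.132% of the counts of a sedentary library and 0.0872% to 0.0989% of an exercised one, and these ranges did not overlap. Measured as the median over the 49 genes of the log2 level less the sedentary mean, the exercised livers lay between -0.335 (Exercise replicate 6) and -0.174 (Exercise replicate 1), and the sedentary livers between -0.0704 and 0.110. Of the 49 genes, 38 to 43 lay below their sedentary mean in an exercised liver, and 8 to 37 in a sedentary liver. Sedentary replicate 2 had the highest level among the sedentary livers and Sedentary replicate 5 the lowest. The sedentary livers thus differed among themselves. Within the groups the genes that fell also varied together: over the 528 pairs of the 33 genes, the correlation of their deviations from the group means across the 12 livers was positive for 438 pairs, with a median of 0.304 and a range from -0.615 to 0.893. Genes in a liver share library depth and scaling factors, and the same correlations were not computed for other genes. Whether the 33 genes varied together more than other genes is thus not known, and this is a description.

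**Figure D2:**
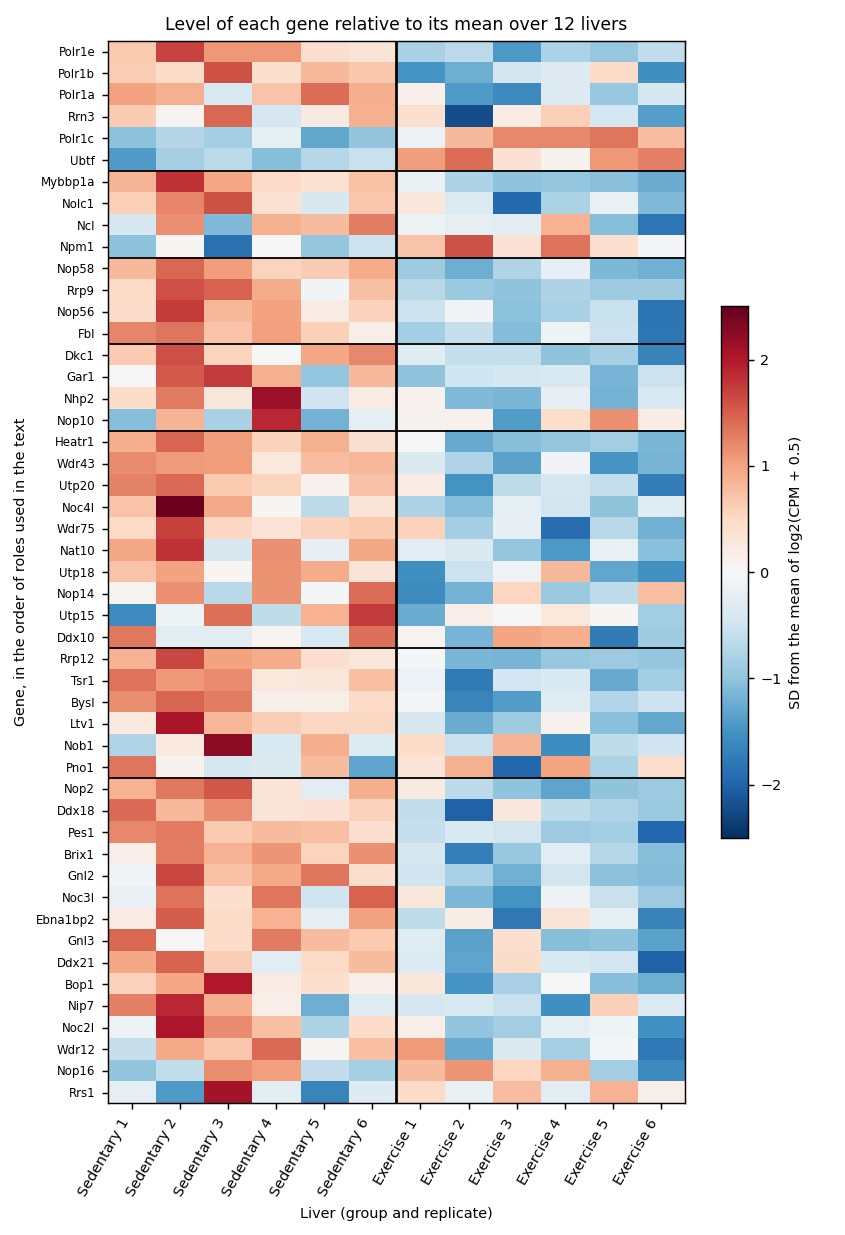
Level of each of the 49 genes (rows, grouped by role) in each of the 12 livers (columns, 6 sedentary left and 6 exercised right of the black line), as SDs from the gene's mean of log2(CPM + 0.5) over the 12 livers. Most rows are red on the left and blue on the right, the rows of Ubtf, Polr1c and Npm1 go the other way, and the median level over the 49 genes is highest in Sedentary replicate 2 and lowest in Exercise replicate 6.

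Promoter sequences are shown here because the transcription factor Myc, with its partner Max, binds the letters CACGTG (the E-box), and Myc was among the genes that fell. RefSeq windows on GRCm38.p6, from 250 bases before to 50 bases after the start, were given for 43 of the 49 genes. Bop1, Fbl, Gnl2, Npm1, Rrp12 and Rrs1 were not matched. CACGTG, which reads the same on both strands, was in a window of 10 of the 43 genes (23.3%). It was in a window of 11.5% of the 9920 tested genes that had one. Counted by single windows, it was in 7.15% of all 32851 windows. Of the 10 genes, 8 fell (all but Rrn3 and Pno1), with a median log2 fold change of -0.39 over the 10, and of the 33 genes without it, 21 fell, with a median of -0.26. Of all 1144 tested genes with the letters, 24.7% fell, close to the 21.3% of all genes tested. Nop2, a methyltransferase of the 28S precursor, held an E-box 60 bases before its start, shown in capitals in the 250 bases that end at the start:
Nop2, chr6:125131633-125131882 (plus strand): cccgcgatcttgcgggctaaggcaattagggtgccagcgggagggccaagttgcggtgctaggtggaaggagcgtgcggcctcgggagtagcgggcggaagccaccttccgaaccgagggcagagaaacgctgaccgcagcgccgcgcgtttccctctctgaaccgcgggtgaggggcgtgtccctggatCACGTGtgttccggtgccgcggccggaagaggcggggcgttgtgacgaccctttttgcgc
The other genes held the E-box (capitals) at these places, numbered from the start and read along the gene's strand, with at most 12 bases on each side:
Utp18 at base -20, chr11:93885769-93885798 (minus strand): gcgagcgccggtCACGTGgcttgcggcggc
Rrn3 at base -215, chr16:13780472-13780501 (plus strand): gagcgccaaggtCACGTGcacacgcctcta
Rrn3 at base -48, chr16:13780639-13780668 (plus strand): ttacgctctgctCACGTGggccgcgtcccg
Pes1 at base 3, chr11:3963965-3963994 (plus strand): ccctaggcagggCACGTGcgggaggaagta
Wdr43 at base 18, chr17:71616220-71616249 (plus strand): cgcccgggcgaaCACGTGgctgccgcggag
Tsr1 at base 25, chr11:74898092-74898121 (plus strand): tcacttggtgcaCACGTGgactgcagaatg
Ltv1 at base 29, chr10:13193092-13193121 (minus strand): gccctgtggaccCACGTGtggagctgccgg
Utp20 at base 38, chr10:88826765-88826789 (minus strand): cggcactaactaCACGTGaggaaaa
Pno1 at base 38, chr11:17211540-17211564 (minus strand): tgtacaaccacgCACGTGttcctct
Mybbp1a at base 41, chr11:72441355-72441376 (plus strand): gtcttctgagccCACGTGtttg

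A second set of letters, TCTCGCGA on either strand, is a promoter element of many housekeeping genes and was searched in the same way. It holds no E-box, and matches that overlap on both strands were counted once in a window. It was in a window of 4 of the 43 genes (9.3%) and of 2.46% of the tested genes that had a window. Counted by single windows, it was in 0.995% of all windows. Of the 4 genes, Nop58 and Tsr1 fell, Polr1c rose and Nop14 did not pass the test, so the element was present with changes of both directions. Nop58, the gene with the smallest p among the 49, holds it (capitals) in the 205 bases of the window that lie before the annotated gene:
Nop58, chr1:59684756-59684960 (plus strand): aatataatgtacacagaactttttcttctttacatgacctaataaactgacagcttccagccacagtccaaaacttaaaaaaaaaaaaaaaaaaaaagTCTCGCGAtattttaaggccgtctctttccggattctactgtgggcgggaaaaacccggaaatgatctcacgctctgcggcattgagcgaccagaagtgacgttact
The other places, again with the element in capitals, were these:
Nop14 at base -35, chr5:34660165-34660194 (minus strand): acttgtgtactTCTCGCGAaatacgggaag
Nop14 at base -4, chr5:34660134-34660163 (minus strand): tgacgcactcaTCGCGAGAcgaagctgggc
Polr1c at base -6, chr17:46248033-46248062 (minus strand): gcggggcaagaTCTCGCGAcattcaagatt
Tsr1 at base -67, chr11:74898002-74898031 (plus strand): ggcaaaaaaccTCGCGAGAggtcgcggaag
A match of letters is a description of these windows, not a measured binding site.

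RNA polymerase I and its factors did not move as one. Polr1a, Polr1b and Polr1e fell, Ubtf and Polr1c rose, and Rrn3 did not pass the test. Polr1a (gene ID 20019, chromosome 6 from 71909053 to 71979435) encodes the largest subunit of the enzyme, which forms its active centre with Polr1b. Polr1a lay at 16.8 to 19.7 CPM (median 18.8) in the sedentary livers and at 15.01 to 17.6 CPM (median 16.3) in the exercised livers. The ranges overlapped slightly, and the means were 18.6 ± 0.978 and 16.2 ± 0.997 CPM (SD, n = 6). Polr1a had a log2 fold change of -0.20 (SE 0.061, adjusted p = 0.0156, exact permutation p = 0.00649). Polr1b (gene ID 20017, chromosome 2 from 129100970 to 129128060), the second largest subunit, ranged over 11.8 to 13.8 CPM (median 12.2) and over 9.22 to 11.99 CPM (median 10.1). Its means of 12.4 ± 0.719 and 10.3 ± 1.08 CPM (SD, n = 6) lay apart, although Exercise replicate 5 reached into the sedentary range. For Polr1b the log2 fold change was -0.28 (SE 0.077, adjusted p = 0.00762, exact permutation p = 0.00649). Polr1e, an accessory subunit of RNA polymerase I, fell most of this group (log2 fold change -0.52, SE 0.1, adjusted p = 0.000616), from a range of 4.02 to 5.3 CPM (median 4.49) to one of 2.78 to 3.31 CPM (median 3.18), without overlap.

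Ubtf, the upstream binding factor that coats active ribosomal DNA, was the gene of the 49 with the largest increase (gene ID 21429, chromosome 11 from 102304560 to 102323649). It lay at 26.8 to 31.1 CPM (median 29.96) in the sedentary livers and at 34.7 to 43.4 CPM (median 40.97) in the exercised livers, so each exercised liver was above each sedentary liver. The means were 29.5 ± 1.57 and 39.8 ± 3.44 CPM (SD, n = 6). Ubtf had a log2 fold change of 0.43 (SE 0.064, adjusted p = 3.50e-05, exact permutation p = 0.00216). Polr1c (gene ID 20016, chromosome 17 from 46243920 to 46248045), a subunit that RNA polymerases I and III share, went from a range of 9.51 to 11.3 CPM (median 10.1) to one of 11.5 to 14.6 CPM (median 13.8), again without overlap (means 10.2 ± 0.602 and 13.6 ± 1.13 CPM, SD, n = 6). For Polr1c the log2 fold change was 0.40 (SE 0.073, adjusted p = 0.000243, exact permutation p = 0.00216). Rrn3 (gene ID 106298, chromosome 16 from 13780699 to 13814841), the factor that joins the polymerase to the promoter and answers to growth signals, was at 13.6 to 15.6 CPM (median 14.5) and at 11.8 to 14.7 CPM (median 13.9) in the 2 groups, with means of 14.5 ± 0.737 and 13.5 ± 1.13 CPM (SD, n = 6). That difference was within the spread, although Rrn3 passed the test with library size alone (-0.20, adjusted p = 0.0251). Rrn3 had a log2 fold change of -0.10 (SE 0.068, adjusted p = 0.241, exact permutation p = 0.106). Ratios taken inside a liver, which no scaling factor can alter, restate these opposite changes. The pairs of all ratios given here and below were chosen with earlier results known, so the ratios are a description. Ubtf to Polr1a was 1.41 to 1.82 in the sedentary livers and 2.06 to 2.84 in the exercised livers. Polr1c to Polr1e was 1.97 to 2.49 and 3.62 to 5.12, and neither ratio overlapped between the groups. Polr1c and Polr1e each had no overlap, in opposite directions, so their ratio had to separate the groups.

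The nucleolar chaperones and scaffolds were split as well, with 2 of 4 lower (Mybbp1a and Nolc1), 1 higher (Npm1) and 1 not called (Ncl). Mybbp1a (gene ID 18432, chromosome 11 from 72441327 to 72451770), a nucleolar protein that also binds the transcription factor Myb, was the most abundant by CPM of the 6 genes that fell by at least 1.5-fold. It fell from a range of 64.8 to 96.2 CPM (median 72.6) to one of 41.3 to 55.5 CPM (median 44.2), and no exercised liver reached the sedentary range. The means were 74.8 ± 11.3 and 45.9 ± 5.03 CPM (SD, n = 6). For Mybbp1a the log2 fold change was -0.70 (SE 0.092, adjusted p = 1.42e-05, exact permutation p = 0.00216). Nolc1, a chaperone of snoRNPs, fell with a log2 fold change of -0.40 (adjusted p = 0.00688). Npm1, or nucleophosmin, and Ncl, or nucleolin, are the abundant proteins of the nucleolus. Npm1 (gene ID 18148, chromosome 11 from 33152498 to 33164142) went from a range of 72.2 to 91.1 CPM (median 82.8) to one of 90.4 to 110.3 CPM (median 97.4), with overlap, and its means were 83.3 ± 7.2 and 99.6 ± 7.71 CPM (SD, n = 6). Npm1 had a log2 fold change of 0.26 (SE 0.067, adjusted p = 0.00446, exact permutation p = 0.00649). The call of Npm1 was lost with library size alone (log2 fold change 0.16, adjusted p = 0.102). Ncl (gene ID 17975, chromosome 1 from 86344719 to 86359455) was at 98.01 to 118 CPM (median 114) and at 92.9 to 114 CPM (median 105), with means of 110.4 ± 7.83 and 103 ± 7.13 CPM (SD, n = 6), a difference within the spread. For Ncl the log2 fold change was -0.096 (SE 0.061, adjusted p = 0.226, exact permutation p = 0.139). Ncl passed the test, as lower, with library size alone (-0.19, adjusted p = 0.0261). The ratio of Npm1 to Ncl was 0.713 to 0.796 in the sedentary livers and 0.909 to 1.05 in the exercised livers, without overlap.

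All 4 proteins of the box C/D and U3 snoRNPs fell, and none of the 4 overlapped between the groups. Nop58 (gene ID 55989, chromosome 1 from 59684961 to 59711510), a core protein of every box C/D snoRNP, had the smallest p of the 49 genes. It fell from a range of 12.2 to 15.9 CPM (median 13.4) to one of 7.05 to 9.64 CPM (median 7.53), which left a clear gap between the groups (means 13.6 ± 1.35 and 7.83 ± 0.993 CPM, SD, n = 6). Nop58 had a log2 fold change of -0.80 (SE 0.09, adjusted p = 2.58e-06, exact permutation p = 0.00216). Rrp9 (gene ID 27966, chromosome 9 from 106477309 to 106485415), which binds the U3 snoRNA that guides early cuts of the precursor, fell from a range of 5.55 to 8.45 CPM (median 6.96) to one of 4.35 to 4.71 CPM (median 4.47). Its exercised livers lay in a narrow band under the lowest sedentary liver (means 7.08 ± 1.09 and 4.51 ± 0.131 CPM, SD, n = 6). For Rrp9 the log2 fold change was -0.65 (SE 0.1, adjusted p = 8.25e-05, exact permutation p = 0.00216). Fbl (gene ID 14113, chromosome 7 from 28168893 to 28179269), or fibrillarin, the methyltransferase of these particles, fell from a range of 30.4 to 36.5 CPM (median 34.01) to one of 22.5 to 29.1 CPM (median 26.7) (means 33.9 ± 2.28 and 26.3 ± 2.26 CPM, SD, n = 6). Fbl had a log2 fold change of -0.37 (SE 0.066, adjusted p = 0.000247, exact permutation p = 0.00216). Nop56, the partner of Nop58 in the particle, fell with a log2 fold change of -0.43 (adjusted p = 0.00036). The estimate for Nop58 was below that for Fbl, and the ratio of Nop58 to Fbl was 0.351 to 0.449 in the sedentary livers and 0.259 to 0.331 in the exercised livers, without overlap.

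Of the 4 box H/ACA proteins, 3 fell and Nop10 did not pass the test. Dkc1 (gene ID 245474, chromosome X from 75095854 to 75109776), or dyskerin, is the pseudouridine synthase of these particles and also part of telomerase. It fell from a range of 9.58 to 14.5 CPM (median 11.8) to one of 6.13 to 8.81 CPM (median 7.91), without overlap (means 11.96 ± 1.7 and 7.71 ± 0.922 CPM, SD, n = 6). For Dkc1 the log2 fold change was -0.63 (SE 0.1, adjusted p = 9.63e-05, exact permutation p = 0.00216). The other core proteins of the particle had smaller estimates. Gar1 (-0.37, adjusted p = 0.0196) and Nhp2 (-0.23, adjusted p = 0.0187) fell, with overlap between the groups. The call of Gar1 was lost without Sedentary replicate 3 (adjusted p = 0.0535) and that of Nhp2 without Exercise replicate 5 (adjusted p = 0.0556). Nop10, the smallest of the core proteins, had the highest level per length of the 49 genes (87.0 FPKM, the mean of the sedentary livers) and a log2 fold change of 0.019 (adjusted p = 0.85), whose sign turned with library size alone (-0.077).

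**Figure D3:**
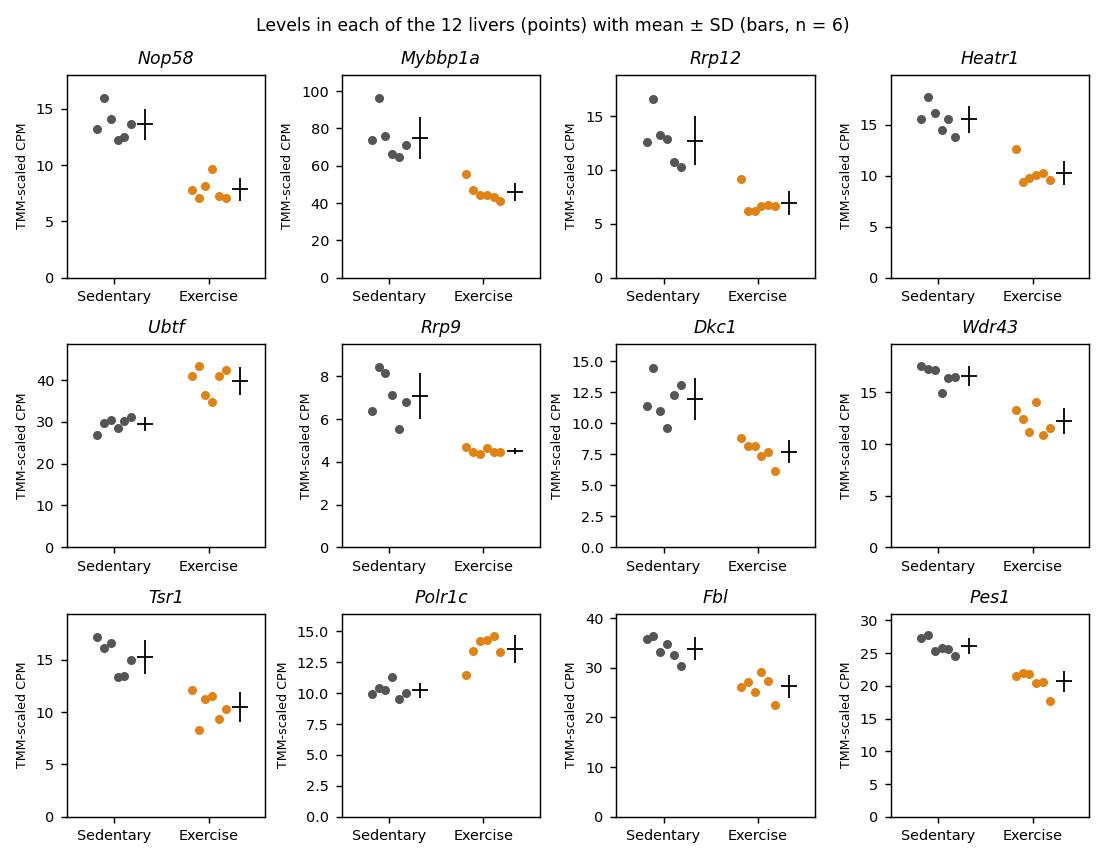
TMM-scaled CPM (vertical axes, from 0) in each of the 6 sedentary (grey) and 6 exercised (orange) livers for the 12 genes with the smallest p, with mean ± SD beside the points (n = 6). In each panel the groups do not overlap, and Ubtf and Polr1c are the panels in which the exercised livers lie above the sedentary livers.

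The small subunit processome is the large early particle that assembles on the 5′ part of the precursor. Of its 10 genes, 7 fell, 0 rose and 3 did not pass the test (Nop14 -0.13, Utp15 -0.13 and Ddx10 -0.067), and all 10 had a negative log2 fold change. Heatr1 (gene ID 217995, chromosome 13 from 12395375 to 12438893), a processome protein that RNA polymerase I also needs for efficient transcription, fell from a range of 13.8 to 17.7 CPM (median 15.5) to one of 9.35 to 12.6 CPM (median 9.91). No exercised liver reached the sedentary range, although Exercise replicate 1 stood above the other exercised livers (means 15.5 ± 1.35 and 10.3 ± 1.2 CPM, SD, n = 6). Heatr1 had a log2 fold change of -0.59 (SE 0.083, adjusted p = 2.05e-05, exact permutation p = 0.00216). Wdr43 (gene ID 72515, chromosome 17 from 71616178 to 71659031), a WD repeat protein of the same processome subcomplex as Heatr1, fell from a range of 14.9 to 17.5 CPM (median 16.8) to one of 10.9 to 14.1 CPM (median 11.99), also without overlap (means 16.6 ± 0.949 and 12.2 ± 1.26 CPM, SD, n = 6). For Wdr43 the log2 fold change was -0.44 (SE 0.073, adjusted p = 0.000116, exact permutation p = 0.00216). The scaffold protein Utp20 (-0.36, adjusted p = 0.0015), Noc4l (-0.36, adjusted p = 0.0179), Wdr75 (-0.33, adjusted p = 0.00965), the RNA acetyltransferase Nat10 (-0.26, adjusted p = 0.00759) and Utp18 (-0.22, adjusted p = 0.031) fell with overlap between the groups. The call of Utp18 was lost without any single one of Sedentary replicates 2, 4 and 5 and Exercise replicates 1, 5 and 6 (adjusted p from 0.0559 to 0.0824). Nop14 passed the test, as lower, with library size alone (-0.23, adjusted p = 0.025).

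The pre-40S group held the largest decrease among the 49 genes. Of its 6 genes, 4 fell, each without overlap between the groups, and Nob1 (-0.11, adjusted p = 0.399) and its partner Pno1 (-0.0016, adjusted p = 0.984), which act at the last cut of 18S ribosomal RNA, did not pass the test. Rrp12 (gene ID 107094, chromosome 19 from 41859483 to 41896153), a HEAT repeat protein needed for export of the subunits from the nucleus, fell from a range of 10.3 to 16.6 CPM (median 12.8) to one of 6.2 to 9.19 CPM (median 6.65). Exercise replicate 1 was the highest exercised liver here as well, and still lay under the sedentary range (means 12.7 ± 2.25 and 6.94 ± 1.13 CPM, SD, n = 6). Rrp12 had a log2 fold change of -0.88 (SE 0.12, adjusted p = 1.74e-05, exact permutation p = 0.00216). Tsr1 (gene ID 104662, chromosome 11 from 74898080 to 74909340), a GTPase-like factor that sits on the maturing small subunit, fell from a range of 13.4 to 17.2 CPM (median 15.6) to one of 8.3 to 12.1 CPM (median 10.8) (means 15.3 ± 1.63 and 10.5 ± 1.44 CPM, SD, n = 6). For Tsr1 the log2 fold change was -0.55 (SE 0.095, adjusted p = 0.000172, exact permutation p = 0.00216). Bysl (-0.50, adjusted p = 0.000573) and Ltv1 (-0.44, adjusted p = 0.000758), which accompany the particle from the nucleus to the cytoplasm, fell too. Tsr1 shares 32.3% of its exon bases with Srr on the opposite strand, and Srr had a log2 fold change of -0.155 and did not pass the test.

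Pre-60S assembly was the largest group, with 15 genes, of which 10 fell, 0 rose and 5 did not pass the test. Their log2 fold changes lay between -0.42 for Nop2 and 0.066 for Rrs1. Pes1 (gene ID 64934, chromosome 11 from 3963975 to 3980004), which forms the PeBoW complex with Bop1 and Wdr12, fell from a range of 24.6 to 27.7 CPM (median 25.8) to one of 17.7 to 21.99 CPM (median 21.03). The groups did not overlap, and Exercise replicate 6 was the lowest liver (means 26.1 ± 1.2 and 20.7 ± 1.57 CPM, SD, n = 6). Pes1 had a log2 fold change of -0.34 (SE 0.062, adjusted p = 0.000278, exact permutation p = 0.00216). Bop1 (-0.18, adjusted p = 0.0215) fell with overlap, Wdr12 (-0.14, adjusted p = 0.142) did not pass the test, and a difference between the 3 partners was not tested. Brix1 (-0.33, adjusted p = 0.000378), a factor of early pre-60S particles, the GTPase Gnl2 (-0.33, adjusted p = 0.000404) and the helicase Ddx18 (-0.37, adjusted p = 0.00162) fell without overlap. Nop2 (-0.42, adjusted p = 0.000821), Gnl3 or nucleostemin (-0.25, adjusted p = 0.00605), the helicase Ddx21 (-0.19, adjusted p = 0.0222), Ebna1bp2 (-0.26, adjusted p = 0.0183) and Noc3l (-0.30, adjusted p = 0.0317) fell with overlap. Noc2l (-0.15, adjusted p = 0.0674), Nip7 (-0.15, adjusted p = 0.188), Nop16 (0.029, adjusted p = 0.752) and Rrs1 (0.066, adjusted p = 0.496) did not pass the test, like Wdr12.

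Several pre-60S calls changed when single livers were left out. The call of Noc3l was lost without any one of Sedentary replicates 2, 4 and 6 and Exercise replicates 2, 3, 5 and 6 (adjusted p from 0.0571 to 0.0771). That of Bop1 was lost without Sedentary replicate 3 or Exercise replicates 2, 5 or 6 (adjusted p from 0.052 to 0.0613), that of Ddx21 without Sedentary replicate 2 or Exercise replicates 2 or 6 (0.0516 to 0.0734), and that of Ebna1bp2 without Exercise replicates 3 or 6 (0.0505 and 0.0549). Noc2l, in turn, passed the test as lower without Sedentary replicate 5 (-0.17, adjusted p = 0.0325), with the upper quartile (-0.17, adjusted p = 0.0466) and with library size alone (-0.24, adjusted p = 0.0114). Wdr12 passed as lower with library size alone (-0.23, adjusted p = 0.0212), and both genes did so with limma on FPKM.

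Levels of different genes were compared per length, as FPKM. By the mean FPKM of the sedentary livers the order began with Nop10 (87.0), Npm1 (64.1), Fbl (31.3), Nhp2 (25.3), Pno1 (23.8) and Ncl (20.5) and ended with Polr1e (1.34). Of the 10 genes highest by FPKM, 4 fell (Fbl, Nhp2, Mybbp1a and Nop56), and of the other 39, 29 fell. The ratio of the CPM of Nop58 to that of Nop10 was 0.18 to 0.259 in the sedentary livers and 0.114 to 0.16 in the exercised livers, without overlap. That of Dkc1 to Nop10, both of the H/ACA particle, was 0.141 to 0.233 and 0.104 to 0.157, with overlap. The spread between livers was similar in the groups, with a median SD of 8.65% of the mean in the sedentary livers and 8.6% in the exercised livers.

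The genes also share features of their loci. On the GENCODE annotation of GRCm38, 7 of the 49 genes hold snoRNA genes within them, 21 in all: Nop56 (5), Nop58 (4), Ncl, Wdr43 and Gnl3 (3 each), Tsr1 (2) and Dkc1 (1). That is 14.3% of the 49, where 1.66% of the 12060 tested genes with a place on the annotation hold one. Of the 7 host genes 6 fell, all but Ncl, whereas of the 200 hosts among the tested genes 14.5% fell. The snoRNAs themselves were not analysed here. Of the 49 genes, 20 share exon bases with another gene, 18 of them with one on the opposite strand, and whether reads were counted by strand is not given in the sources used here. Among the 29 genes with no shared exon bases, 18 fell and 3 rose. Of the 18 partners on the opposite strand 12 were tested, of which 6 fell and 3 rose. Among those that fell, Spns2 (log2 fold change -0.89) shares 2.26% of the exon bases of Mybbp1a. Parp3 (-0.71) shares 0.682% of those of Rrp9. The part of these partners in the results of the genes they overlap was not tested.

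The other factors of the same steps were taken from lists that hold none of the 49 genes. These lists were written with earlier results of these data known and come from the same 12 livers, so they are no separate support. Among 40 other small subunit processome proteins 18 fell and 1 rose (median log2 fold change -0.17), and among 48 other pre-60S factors 21 fell and 2 rose (median -0.19). These are 45% and 43.8% lower, against 21.3% of all genes tested. Tbl3, a WD repeat protein, fell most of the former (log2 fold change -0.73, SE 0.09, adjusted p = 6.41e-06), and Dcaf13 rose (log2 fold change 0.20, SE 0.075, adjusted p = 0.045), a call that was lost without any one of Sedentary replicates 1, 2 and 3 and Exercise replicates 2, 3, 4 and 6 (log2 fold change from 0.159 to 0.235 over the fits without 1 liver). Rrp1b, a nucleolar protein of the 60S pathway, fell most of the latter (log2 fold change -0.92, SE 0.13, adjusted p = 1.91e-05), and the zinc finger protein Zfp622, which works on late 60S particles in the cytoplasm, rose (log2 fold change 0.35, SE 0.066, adjusted p = 0.000398). Among 13 other pre-40S factors 3 fell and 0 rose (3 were higher at an unadjusted p under 0.05 in edgeR and 0 in DESeq2). The share that fell, 23.1%, was near the 21.3% of all genes tested, and the median was -0.041. Rrp8, a nucleolar methyltransferase-like protein, fell most (-0.36, adjusted p = 0.0163). The nuclear RNA exosome trims the 3′ end of the 5.8S precursor. Its list, which also held cofactors and separate nucleases, had 11 of 19 genes lower (57.9%) and 1 higher. Xrn2 (-0.29), a nuclease that is no part of the exosome, was among the 11. Mphosph6 fell most (-0.79, adjusted p = 0.000179) and Exosc6 rose (0.44, adjusted p = 0.00252). Of 12 snoRNP assembly factors 4 fell (33.3%) and 0 rose (0 at an unadjusted p under 0.05 and 0 in DESeq2). Rpap3, of the R2TP chaperone complex that builds snoRNPs, fell most (-0.69, adjusted p = 0.000134). Named after their values were seen, the other called genes of the shorter counts were Riok1 (-0.28) and Tsr3 (-0.22) of the pre-40S factors, Sbds (0.18) of the pre-60S factors, and Nufip1 (-0.51), Coil (-0.48) and Znhit6 (-0.41) of snoRNP assembly, on the log2 scale.

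Of 17 other RNA polymerase I subunits and initiation factors, 4 fell (23.5%) and 2 rose (11.8%), with a median of 0.040, so the share that fell was near that of all genes. Cd3eap, an RNA polymerase I subunit, fell most (log2 fold change -0.72, SE 0.12, adjusted p = 0.000164), from 5.39 ± 0.764 to 3.27 ± 0.497 CPM (SD, n = 6), and Ttf1, the terminator protein of ribosomal DNA, rose (log2 fold change 0.50, SE 0.08, adjusted p = 8.88e-05), from 6.51 ± 0.459 to 9.19 ± 0.69 CPM (SD, n = 6). Of 22 RNA polymerase III genes, 5 fell (22.7%) and 4 rose (18.2%), and Crcp rose most (0.57, adjusted p = 5.39e-06). The specific subunit Polr1e and its partner Cd3eap, which form a heterodimer on the enzyme, thus both fell, while the rDNA-binding proteins Ubtf and Ttf1 both rose. This pairing was noticed in the values and was not tested. Named after their values were seen, the other called genes of the RNA polymerase I list were Taf1b (-0.66), Polr2k (-0.28), Polr2e (-0.21) and Taf1d (0.31) on the log2 scale. Polr2k and Polr2e encode subunits that RNA polymerases I, II and III share. Called genes of RNA polymerase III, chosen likewise, included Polr3d (-0.26), Gtf3c6 (-0.25), Gtf3c3 (-0.23), Brf2 (-0.23), Maf1 (0.53), Bdp1 (0.53) and Polr3b (0.24).

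Among 23 growth regulators that act on ribosome synthesis, 11 rose (47.8%) and 4 fell (17.4%), with a median of 0.11. Myc lay at 5.15 to 12.7 CPM (median 9.19) in the sedentary livers and at 2.76 to 5.36 CPM (median 3.98) in the exercised livers, with overlap. For Myc the log2 fold change was -1.23 (SE 0.26, adjusted p = 0.00236, exact permutation p = 0.00433). Within the sedentary group Myc was low in Sedentary replicates 2, 3 and 5 and high in replicates 1, 4 and 6. Of the livers low in Myc, Sedentary replicate 2 had the highest sedentary level of the 49 genes and Sedentary replicate 5 the lowest. A link between Myc and the level of the 49 genes was not tested. Mxd1, a partner of Max that competes with Myc, rose without overlap, from a range of 2.34 to 3.64 CPM (median 3.39) to one of 5.14 to 6.78 CPM (median 6.05). Mxd1 had a log2 fold change of 0.93 (SE 0.13, adjusted p = 2.12e-05, exact permutation p = 0.00216). The other 3 genes of the list that fell, named after their values were seen, were Mlx (-0.36), Trp53 (-0.39) and Mtor (-0.24).

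Gene groups that act beside or on the finished ribosome were set next to the 49 genes. Of 20 aminoacyl-tRNA synthetases, which charge tRNAs with amino acids, 14 fell and none of the 20 had a higher level at an unadjusted p under 0.05 in edgeR or an adjusted one in DESeq2 (median -0.20), led by Lars (log2 fold change -0.66, SE 0.067, adjusted p = 7.53e-07). Of 78 mitochondrial ribosomal proteins 36 fell and 2 rose (median -0.16). The 2, named after their values were seen, were Mrps25 (0.31) and Mrps31 (0.18). Of 77 cytosolic ribosomal proteins tested, whose transcripts are known to be controlled largely at translation, 0 fell and 1 rose (Rps27, 0.19, adjusted p = 0.0366, named after its values were seen), with a median of 0.017. At an unadjusted p under 0.05 in edgeR 0 of the 77 were lower, and DESeq2 called 1 lower (Rpl3, log2 fold change -0.1, adjusted p = 0.0466). The factors that assemble the cytosolic ribosome and the proteins it is assembled from thus differed in the number that fell in edgeR, 33 of 49 and 0 of 77, which is a description of the lists.

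**Figure D4:**
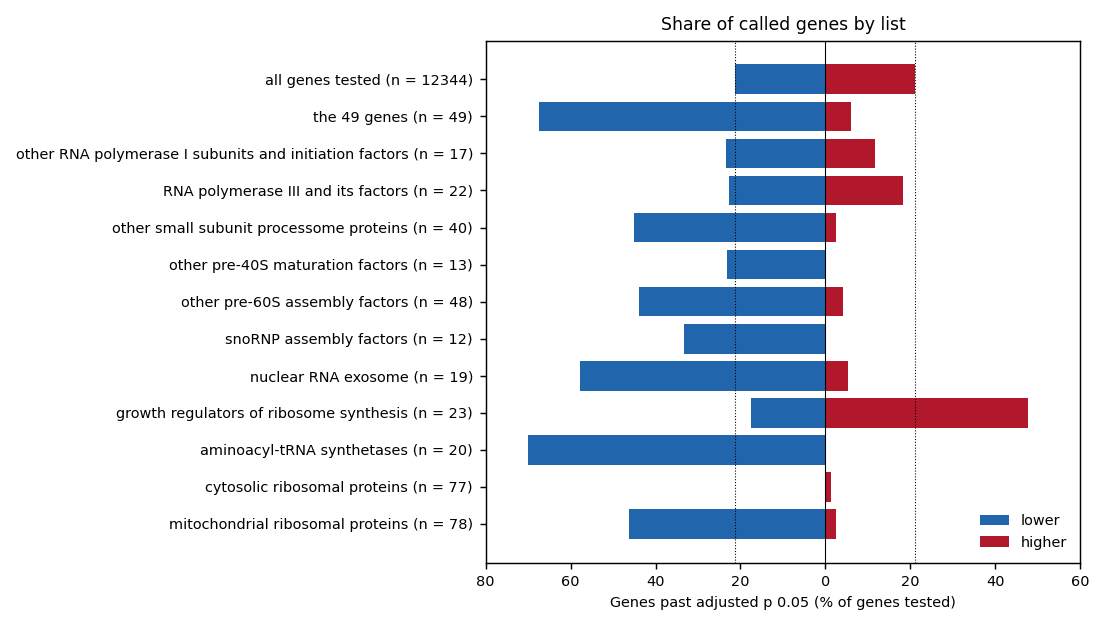
Share of the tested genes of each list that fell (blue, to the left) or rose (red, to the right) past an adjusted p of 0.05, in percent of the genes tested, with the number tested in parentheses and dotted lines at the shares of all genes (21.3% and 21.1%). The 49 ribosome biogenesis genes and the aminoacyl-tRNA synthetases extend farthest to the left, growth regulators extend farthest to the right, and cytosolic ribosomal proteins have 0 genes that fell.

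Markers of other liver cells were examined as lists. Kupffer cell (10 tested), cholangiocyte (5), lymphocyte and neutrophil (4) and erythroid (5) markers had 0 genes that passed the test of edgeR or DESeq2 in either direction, and 1 of them, Hbb-bt, was lower at an unadjusted p under 0.05. Of 10 endothelial markers 3 rose (Lyve1, Stab1 and Pecam1, 1.18, 0.63 and 0.49) and Kdr fell (-0.19), and of 10 stellate cell markers Lrat and Des fell (-0.59 and -0.40), all named after their values were seen. Thus 30% of the endothelial markers rose and 10% fell, and 20% of the stellate cell markers fell. Of all genes tested, 21.1% rose and 21.3% fell. Summed levels overlapped between the groups for each list: 118 to 197 and 141 to 214 CPM for Kupffer cells, 200.1 to 264 and 227 to 334 for endothelium, 183 to 239 and 166 to 247 for stellate cells. They were 31.4 to 41.7 and 34.2 to 41.6 for cholangiocytes, 6.52 to 10.9 and 6.42 to 9.74 for lymphocytes and neutrophils, and 416 to 684 and 414 to 527 for erythroid cells. In none of these lists was a marker in the table at 0 in every library. Their part in the lower level of the 49 genes was not tested. Proliferation markers, of interest because dividing cells make many ribosomes, summed to 34.6 to 41.5 and 38.7 to 41.5 CPM. Of 12 listed, 9 were tested, and Mki67, Top2a and Ccnb1 did not pass the filter on low counts. Of the 9, 3 rose (33.3%: Birc5 1.17, Ccnb2 0.87 and Pcna 0.27) and Tyms fell (-0.27), each with overlap between the groups. Negative log2 fold changes were found for 5 of the 9. Levels were low for Ccnb2 (means 0.394 sedentary and 0.728 CPM exercised) and Birc5 (1.01 and 2.28 CPM).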

How the data were processed

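RNA-Seq of whole liver was made for 12 samples, 6 per group, grouped by their labels. The authors deposited estimated counts per gene, not scaled between libraries. FPKM values, scaled by the authors for length and depth, were also deposited. Submitters' processing notes name Bowtie2 2.3.4.3, RSEM 1.3.1 and mm10. The strand setting and tests for the sequencing are not given in the sources used here. Of the deposited estimated counts 31.3% were not whole, and they were rounded. No pair among the 66 library pairs was identical (chi-square per gene 7.94 to 45.1 within groups).

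The quasi-likelihood test of edgeR 4.0.16 (R 4.3.3) was fitted to all 12 libraries with group as its single term, TMM factors, robust dispersions, the filterByExpr filter (minimum count 10) and Benjamini-Hochberg adjusted p under 0.05. Biological variation between livers had a coefficient of 11.3%. The SE is the log2 fold change over the root of F. Permutation tests used mean log2(CPM + 0.5). The scripts were tested on simulated counts. Python 3.11.15, pandas 2.3.3 and matplotlib 3.10.9 were used for sequences and figures. Overlaps and snoRNA genes are from the GENCODE annotation of GRCm38 and gene positions from RefSeq. Promoter windows are from RefSeq (GRCm38.p6). The 43 genes with a window had 51 windows, and a gene was counted if any of its windows held the letters. For 45 of the windows, bases after the start were in a GENCODE transcript of that gene.

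Full values are given for the 12 genes with the smallest p and for Polr1a, Polr1b, Rrn3, Ubtf, Ncl, Npm1, Fbl and Dkc1. Of other genes, Myc and the largest increase and decrease among called genes of each pathway list are named, except that 1 gene is not reported here. The 49 genes and all lists were chosen with earlier results of these data known. Lists were written from general knowledge.

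Alternatives were other filters, RLE, upper quartile and library size scaling, DESeq2 1.42.0, limma 3.58.1 (voom, log2(FPKM + 0.1) and log2(FPKM + 1)), the replicate number as a block, an adjusted p under 0.01, and leaving out each library. Library totals ran from 18745379 to 19324461 counts.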

Additional observations from a re-analysis of the deposited data

Results flagged for a closer look

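Among 98 groups of 6 livers (49 genes in each group), 8 held 1 liver far from the others, with a gap to the nearest liver that was large against the range of the group. Chance alone would give about 4.9. Sedentary replicate 2 was high for Mybbp1a (96.17 CPM, the nearest liver at 76.1), Wdr75 (11.6 CPM, nearest 9.785) and Ltv1 (18.28 CPM, nearest 14.58). Sedentary replicate 3 was high for Polr1b (13.81 CPM, nearest 12.5) and Rrs1 (20.8 CPM, nearest 17.15). Exercise replicate 1 was high for Heatr1 (12.64 CPM, nearest 10.23) and Rrp12 (9.192 CPM, nearest 6.766). Exercise replicate 6 was low for Pes1 (17.73 CPM, nearest 20.5). The calls of Mybbp1a, Wdr75, Ltv1, Polr1b, Heatr1, Rrp12 and Pes1 were each kept when any single liver was left out.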

How the results depend on the processing

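The median log2 fold change of the 49 genes (-0.277) moved to -0.372 with library size alone and to -0.359 with limma on log2(FPKM + 0.1), which does not use TMM factors, and lay between -0.294 and -0.242 when single livers were left out. Genes that fell numbered 28 to 33 and genes that rose 3 in those fits, 38 and 2 with library size alone and with either FPKM pseudocount, 34 and 3 with the upper quartile, 24 and 3 at an adjusted p under 0.01, and 33 and 3 with RLE factors, DESeq2, limma-voom and other filters. Of the 36 genes called, 28 kept their call under all alternatives other than the stricter threshold, and 0 changed direction. Among genes not called, the sign turned for Nop10 (upper quartile -0.00282, library size -0.0771, FPKM + 0.1 -0.0735, FPKM + 1 -0.0727, and without 1 liver -0.00378 to 0.0688), Nop16 (library size -0.0665, FPKM -0.11 and -0.104), Rrs1 (-0.0304, -0.023 and -0.0215 in the same order) and Pno1 (DESeq2 0.000221, and without 1 liver -0.0175 to 0.0254). With the replicate block 32 genes fell and 3 rose, the call of Noc3l being lost (adjusted p = 0.0561). The deviations of same-numbered livers had correlations from -0.099 to 0.16, and 1 of 6 exercised livers matched its own number best. With 6 pairs this cannot show whether same-numbered samples share more than a number, and the labels do not say. The causes of these shifts were not tested. Polr1e (48 counts at the lowest) and Gar1 (59) rest on the fewest counts, and the effect of depth on the calls was not tested.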

Other observations

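Further values of the growth regulators are given here for genes named after their values were seen, which form no theme that was tested. Of the Max network, Mycl (0.86 on the log2 scale), Mxd4 (0.48), Max (0.36), Mnt (0.30) and Mxi1 (0.19) rose beside Mxd1 (0.93), and Mlx fell (-0.36). Maf1, the repressor of RNA polymerase III (0.53), Baz2a, which silences copies of ribosomal DNA (0.43), and the brakes on growth signaling Tsc1 (0.49) and Eif4ebp1 (0.20) rose as well, and Trp53, which also restrains growth, fell (-0.39). Adjusted p in edgeR ran from 7.96e-06 (Tsc1) to 0.0328 (Mnt). The groups did not overlap for Mycl, Mxd4, Max, Mxd1, Maf1, Baz2a and Tsc1, which rose, and for Mlx, which fell. A link between these changes and the lower level of the 49 genes was not tested.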
